A study of Mus musculus with 12 samples.

Results

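Prm1, Prm2, Prm3, Tnp1 and Tnp2, the genes of the mouse protamines and transition proteins, are described here across testes of F1 mice. They were picked by their gene symbols, and all 5 of the 5 symbols were found among the 20788 genes of the expression table. RNA-seq was carried out on 4 groups of 3 libraries, 12 libraries in all, and a group takes its name from the virus given to the sires. The lncRNA5251 knockdown group came from males given 3 hairpins against lncRNA5251, a long non-coding RNA, in a lentivirus with the LV3 backbone, and 3NC mice descend from males that received the control vector of that backbone. The lncRNA5251 overexpression group came from males given lncRNA5251 in the LV5 backbone, and 5NC mice from males that received the LV5 control vector. These groups are called knockdown, 3NC, overexpression and 5NC below. Per the study, the sires were ICR mice injected in the testis at 4 weeks of age, normal ICR females were their mates, and the F1 males were taken at 8 weeks. The strain is written "IRC mouse" in the labels, and the design text of the series speaks of virus in the F1 testes themselves. No driver restricted to a cell type is named for the viruses, and no row of the table carries the name lncRNA5251, so its own level is not analysed here. Whether each library stands for its own animal is not in the labels, so the p-values measure only how these libraries differ from each other, which may be technical in part.

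Protamines are small, arginine-rich proteins that replace histones on the DNA of the elongating spermatid and pack the sperm nucleus tightly. Transition proteins sit on the chromatin between the removal of histones and the deposition of protamines. Prm1 encodes the protamine that is used as synthesized, and Prm2 a protamine made as a precursor and cut to its mature form. Tnp1 and Tnp2 encode the major transition proteins. Prm3 lies between Prm2 and Tnp2 and encodes an acidic protein of the spermatid cytoplasm, which is not a DNA-packing protamine in spite of its name. These genes are transcribed in round spermatids, and their mRNAs are stored without translation until the spermatid elongates, so an mRNA level in whole testis does not give the amount of protein. Whole testis was sequenced, so fewer spermatids and less mRNA per spermatid cannot be told apart.

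In build GRCm38.p6, which belongs to the same assembly as the mm10 named by the labels, 4 of the 5 genes lie side by side on the minus strand of chromosome 16. Prm1 (gene ID 19118) spans chr16:10796332-10796823, Prm2 (19119) spans chr16:10791377-10792105, Prm3 (19120) spans chr16:10790508-10790914 and Tnp2 (21959) spans chr16:10787935-10788655. The cluster covers 8889 bp. Tnp1 (21958) stands alone on chromosome 1 at chr1:73015074-73015899, also on the minus strand. In the GENCODE vM21 annotation a Tnp1 exon shares 40 bases with an exon of 1700027A15Rik, a gene on the opposite strand that has no row in the table. No source used here says that strand was used in counting, so reads from those 40 bases cannot be told apart.

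The 150 bases before the annotated start of each gene (RefSeq, GRCm38.p6, minus strand) are shown because these promoters drive the genes in the same cells and hold different core letters. Each is printed 5′ to 3′ in the direction of transcription and ends at the base before the start. Capitals mark TGANNTCA, a loose form of the cAMP response element bound by the CREM family of spermatid transcription factors, and the TATA box letters TATAA and TATATA on either strand.
Prm1, chr16:10796824-10796973: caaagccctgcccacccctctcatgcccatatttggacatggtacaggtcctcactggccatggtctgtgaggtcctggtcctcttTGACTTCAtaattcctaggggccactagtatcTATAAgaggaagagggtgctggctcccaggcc
Prm2, chr16:10792106-10792255: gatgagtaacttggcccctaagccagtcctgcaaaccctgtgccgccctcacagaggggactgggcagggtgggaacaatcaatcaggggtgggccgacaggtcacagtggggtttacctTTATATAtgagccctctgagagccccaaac
Prm3, chr16:10790915-10791064: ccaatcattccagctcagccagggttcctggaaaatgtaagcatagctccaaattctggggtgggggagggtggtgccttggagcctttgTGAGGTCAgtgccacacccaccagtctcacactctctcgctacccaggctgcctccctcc
Tnp1, chr1:73015900-73016049: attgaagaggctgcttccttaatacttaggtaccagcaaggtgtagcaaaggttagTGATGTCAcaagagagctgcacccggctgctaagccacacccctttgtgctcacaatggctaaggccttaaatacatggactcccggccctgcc
Tnp2, chr16:10788656-10788805: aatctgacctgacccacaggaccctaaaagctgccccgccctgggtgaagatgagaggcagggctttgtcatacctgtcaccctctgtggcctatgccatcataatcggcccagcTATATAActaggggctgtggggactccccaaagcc

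Motifs were counted in windows of 300 bases, from 250 before to 50 after the start, on both strands, in 32851 RefSeq promoters. TGANNTCA was found in the promoters of Prm1, Prm3 and Tnp1, 3 of 5, and in 14.1% of all promoters. Its first base lies 64 bases before the start of Prm1, 60 before that of Prm3 and 94 before that of Tnp1. The full element TGACGTCA was in 0 of the 5 and in 1.79% of all promoters. TATAA was found in Prm1, Prm2 and Tnp2, again 3 of 5, against 24.9% of all promoters, with its first base 32, 30 and 33 bases before the start. In Prm2 it is read on the opposite strand and overlaps TATATA, which was found in Prm2 and Tnp2 and in 5.67% of all promoters. GGTCA, a letter run read by nuclear receptors, was found in Prm2, Prm3 and Tnp2 and in 40.5% of all promoters, and the Prm3 copy lies inside its TGANNTCA. So only Prm1 held both the loose element and a TATA run in this window.

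By the deposited FPKM, Prm1 and Prm2 were the most abundant mRNAs of the table. Levels between genes are compared in FPKM, fragments scaled by transcript length and by library depth. Prm1 stood at rank 1 of 20788 genes in 11 of the 12 libraries and Prm2 in the other 1, and neither fell below rank 2. Tnp2 and Tnp1 took ranks 3 and 4 in every library. Prm3 lay far lower, at a median rank of 71 and a range of 60 to 124. The order of the group means was Prm1, Prm2, Tnp2, Tnp1 and Prm3 in all 4 groups. Prm1 had 11775 ± 1157 FPKM (SD, n = 3) in 3NC, Prm2 10222 ± 1340, Tnp2 6540 ± 2006, Tnp1 6311 ± 567 and Prm3 641.5 ± 144.2. Within 3NC the ranges of Prm1 and Prm2 overlapped, as did those of Tnp2 and Tnp1, whereas no Prm3 value came near the others. The 5 genes took 1.07% to 1.49% of the estimated reads and 5.19% to 7.17% of the summed FPKM of a library.

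The ranks by FPKM, and the order of Prm1 over Prm2, rest on the length that the deposited FPKM divides by. Prm2 had more reads than Prm1 in all 12 libraries, with a Prm1 to Prm2 ratio of estimated reads of 0.521 to 0.710. The FPKM values imply a median length of 264.1 bases for Prm1 and of 487 bases for Prm2, shorter than their longest annotated transcripts of 469 and 674 bases. Divided by those transcript lengths, the ratio of Prm1 to Prm2 would be 0.748 to 1.02. Both transcripts start upstream of the RefSeq starts used for the promoters, at chr16:10796886 for Prm1 and chr16:10796134 for Prm2. The Prm1 transcript of 469 bases thus includes bases that are shown above as promoter. The length used by the authors is not stated in the sources at hand.

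Comparisons between groups were made on estimated reads with edgeR's quasi-likelihood test, and levels are given in CPM, reads scaled to the depth of the library by the TMM method. Depth was 12719699 to 15771655 estimated reads per library, and the 5 genes had from 1592 reads (Prm3) to 84867 reads (Prm2) in a library. All 5 genes passed the filter on low counts, which left 16388 genes to test. By library, the GC content of the transcripts set apart 7 libraries from the other 5. In each library the deviation of each gene's log2 CPM from its mean over all libraries was regressed on the GC content of its longest transcript. The slope was positive in 3NC 1, 5NC 1, the 3 knockdown libraries and overexpression 1 and 2, at 0.051 to 0.170 log2 per 10 percentage points. It was negative in 3NC 2 and 3, 5NC 2 and 3 and overexpression 3, at -0.183 to -0.109. A list of 10 leukocyte and macrophage markers summed to 420.2 CPM in 3NC 2 and 399 CPM in knockdown 1 and to 91.1 to 113 CPM in the other 10 libraries, and none of its markers was at 0. The part of either in the results below was not tested beyond the values given beside them.

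None of the 5 genes was called in any comparison at an adjusted p under 0.05. Across all genes tested, 0% were called in the knockdown group against 3NC, 0.311% in the overexpression group against 5NC and 0.128% in 5NC against 3NC. At an unadjusted p under 0.05 the members' count was again 0 of 5 in each comparison, against 5.64%, 11.9% and 10.8% of all genes. By DESeq2 16 genes were called in the knockdown comparison, none of them a member. In the same 3 comparisons the CPM ranges of the groups did not overlap for 11.3%, 21.3% and 13% of all genes, and for 0, 1 and 0 of the 5.

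**Figure D1:**
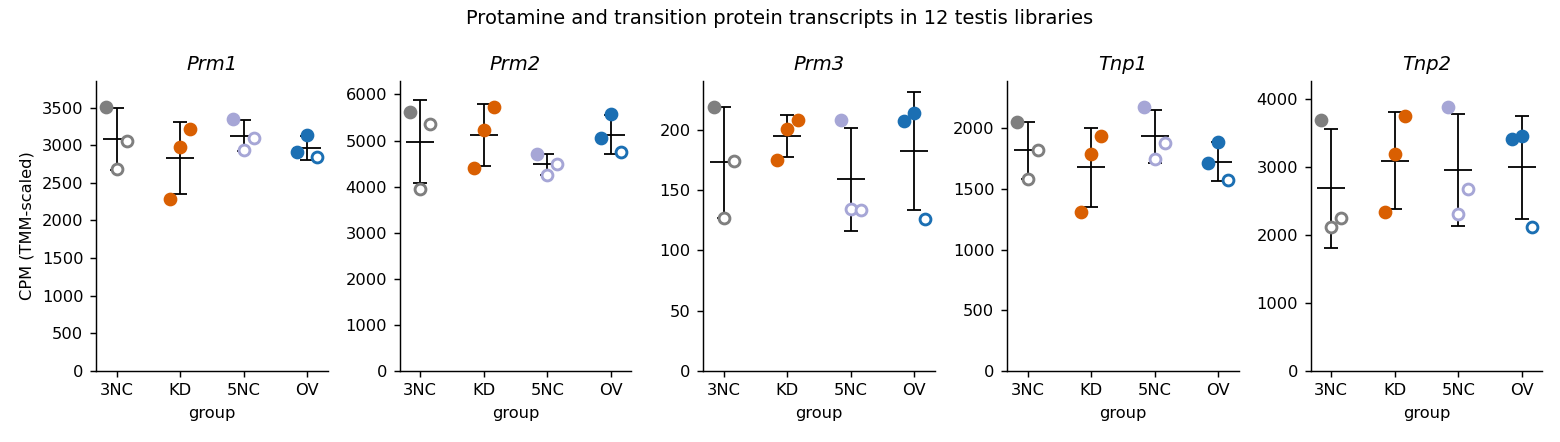
CPM (y axis, from 0, TMM-scaled) of Prm1, Prm2, Prm3, Tnp1 and Tnp2 in the 4 groups (x axis, 3NC, knockdown as KD, 5NC and overexpression as OV). Points are libraries, filled where the GC slope of the library was positive and open where it was negative, with the mean as a long dash and the SD as a bar (n = 3). The open points of Prm3 lie at 126.3 to 174.1 CPM, all below its filled points at 175.4 to 218.7 CPM.

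Prm1 was at 3503, 2682 and 3054 CPM in 3NC replicates 1 to 3 and at 2288, 2976 and 3219 CPM in knockdown replicates 1 to 3. It was at 3348, 2939 and 3094 CPM in 5NC and at 2907, 3140 and 2846 CPM in overexpression. Knockdown 1 held the lowest Prm1 level of all 12 libraries, and the groups overlapped in every comparison. The log2 fold change of Prm1 was -0.12 (SE 0.13, 95% interval -0.41 to 0.17, adjusted p = 0.807) in the knockdown group. In the overexpression group it was -0.08 (SE 0.13, 95% interval -0.37 to 0.21, adjusted p = 0.886). Between the control groups the Prm1 difference was 0.02 (SE 0.13, adjusted p = 0.968). Without knockdown 1 the knockdown difference was 0.01.

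Prm2 was at 5617, 3947 and 5361 CPM in 3NC and at 4394, 5230 and 5720 CPM in the knockdown group. Its levels were 4716, 4256 and 4490 CPM in 5NC and 5048, 5585 and 4751 CPM in overexpression. 3NC 2 was the lowest Prm2 library, and the 3 overexpression libraries lay above the 3 5NC libraries, with the nearest pair at 4751 and 4716 CPM. This was the single comparison of a member in which the groups did not overlap, where 11.3% of all genes were higher in overexpression without overlap. The difference was 0.19 on the log2 scale (SE 0.14, 95% interval -0.11 to 0.50) and did not pass the test (adjusted p = 0.651). It was 0.04 (SE 0.14, adjusted p = 0.948) in the knockdown group and -0.15 (SE 0.14, adjusted p = 0.738) in 5NC against 3NC. The knockdown value of Prm2 was -0.10 without 3NC 2, a library high in leukocyte markers. Without both such libraries the Prm2 difference between the control groups was -0.29 (adjusted p = 0.159).

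Tnp1 followed Prm1 from library to library. It was at 2048, 1583 and 1824 CPM in 3NC and at 1310, 1786 and 1939 CPM in the knockdown group. In 5NC it was at 2172, 1747 and 1881 CPM and in overexpression at 1713, 1888 and 1571 CPM. Knockdown 1 was again the lowest library, 5NC 1 was the highest, and all groups overlapped. The log2 fold change of Tnp1 was -0.12 (SE 0.15, 95% interval -0.45 to 0.22, adjusted p = 0.844) in the knockdown group and -0.17 (SE 0.15, 95% interval -0.50 to 0.17, adjusted p = 0.738) in the overexpression group. It was 0.09 (SE 0.15, adjusted p = 0.869) in 5NC against 3NC. Without knockdown 1 the knockdown difference of Tnp1 was 0.03. The TP1 protein that the study stained is the product of this gene, and these values are of its mRNA only.

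Tnp2 was the most variable of the 5 genes between libraries. Its levels were 3697, 2125 and 2246 CPM in 3NC and 2336, 3191 and 3763 CPM in the knockdown group. They were 3883, 2304 and 2685 CPM in 5NC and 3415, 3462 and 2119 CPM in overexpression. Each group held a low and a high library, and all groups overlapped. The log2 fold change was 0.20 (SE 0.28, 95% interval -0.41 to 0.81, adjusted p = 0.850) in the knockdown group, 0.02 (SE 0.28, 95% interval -0.59 to 0.63, adjusted p = 0.988) in the overexpression group and 0.14 (SE 0.28, adjusted p = 0.896) in 5NC against 3NC. Once the GC trend of each library was removed, the overexpression value of Tnp2 was -0.04.

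Prm3 was at 218.7, 126.5 and 174.1 CPM in 3NC and at 175.4, 200.9 and 208.6 CPM in the knockdown group. It was at 208.6, 134.3 and 133.7 CPM in 5NC and at 207.5, 214.5 and 126.3 CPM in overexpression. The knockdown libraries lay close together, while the other 3 groups each held values near both ends of the range. The log2 fold change of Prm3 was 0.17 (SE 0.24, 95% interval -0.36 to 0.71, adjusted p = 0.858) in the knockdown group, 0.20 (SE 0.24, 95% interval -0.33 to 0.74, adjusted p = 0.820) in the overexpression group and -0.12 (SE 0.24, adjusted p = 0.894) in 5NC against 3NC. With the GC slope of each library as a covariate the knockdown value was -0.12.

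**Figure D2:**
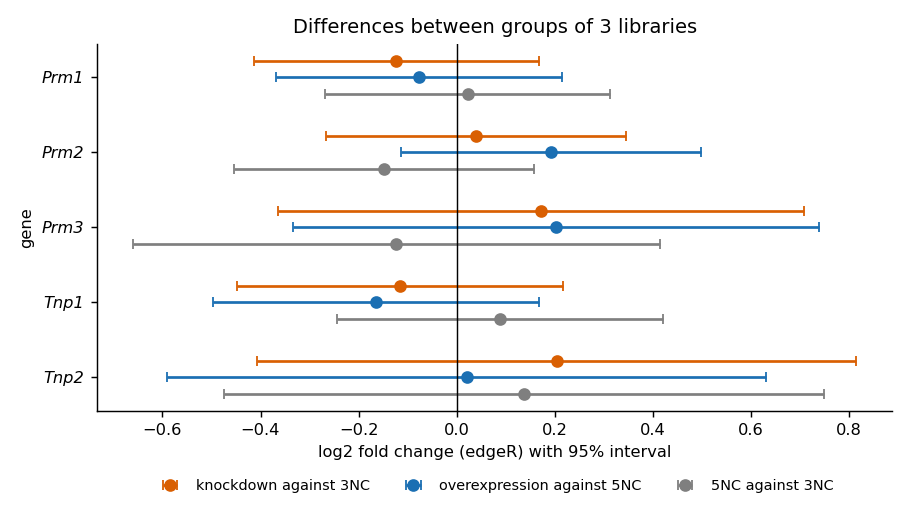
Log2 fold changes (x axis, points) with their 95% intervals (bars) of the 5 genes (y axis) for knockdown against 3NC, overexpression against 5NC, and 5NC against 3NC, by edgeR. Every interval crosses 0, and those of Prm3 and Tnp2 are the widest, at up to -0.41 to 0.81 for Tnp2 in the knockdown group.

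The same fit also tested the knockdown effect minus the overexpression effect. This difference passed for 0 of the 5 genes, against 0.0244% of all genes, and at an unadjusted p under 0.05 again for 0 of the 5, against 4.63%. The differences in log2 fold change ranged from -0.15 (SE 0.20) for Prm2 to 0.18 (SE 0.39) for Tnp2. The lowest 95% limit was -0.79, for Prm3, and the highest was 1.05, for Tnp2. At this spread a difference in either direction could not be told from none.

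Over all 12 libraries the spread fell into a narrow and a wide class. The coefficient of variation of CPM was 10.5% for Prm1, 11.9% for Prm2 and 12.9% for Tnp1, but 21.1% for Prm3 and 23.8% for Tnp2. Among genes with a mean of at least 100 CPM, the SD of log2 CPM of Prm3 and Tnp2 lay at percentiles 96.6 and 97.5, and that of Prm1, Prm2 and Tnp1 at 56.1, 64.6 and 72.7. After the GC trend of each library was removed, the percentiles were 89.2 for Prm3, 95.2 for Tnp2, 79.3 for Prm1, 75.7 for Prm2 and 89.0 for Tnp1.

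Prm3 and Tnp2 were also the members with the most GC-rich transcripts. The GC content of the longest transcript was 58.8% for Prm3 and 58.5% for Tnp2, at percentiles 93.0 and 92.1 of the genes tested. It was 56.7% for Prm2, 54.4% for Prm1 and 49.2% for Tnp1, against a median of 49.6%. Prm3 was at 175.4 to 218.7 CPM in the 7 libraries of positive GC slope and at 126.3 to 174.1 CPM in the other 5, without overlap. Tnp2 was at 2336 to 3883 CPM in the 7 and at 2119 to 2685 CPM in the 5, and knockdown 1 alone of the 7 lay within the range of the 5. Prm1, Prm2 and Tnp1 overlapped fully or in large part. Prm1, for example, was at 2288 to 3503 CPM against 2682 to 3094 CPM. The knockdown group holds positive slopes only, and 3NC holds 1 positive slope among 3 libraries. After removal of the GC trend, Prm3 was at 157.3 to 204.9 CPM in the 7 and at 128.1 to 201.7 CPM in the 5, and the ranges overlapped. Whether GC content or another property of these libraries moved Prm3 and Tnp2 was not tested.

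**Figure D3:**
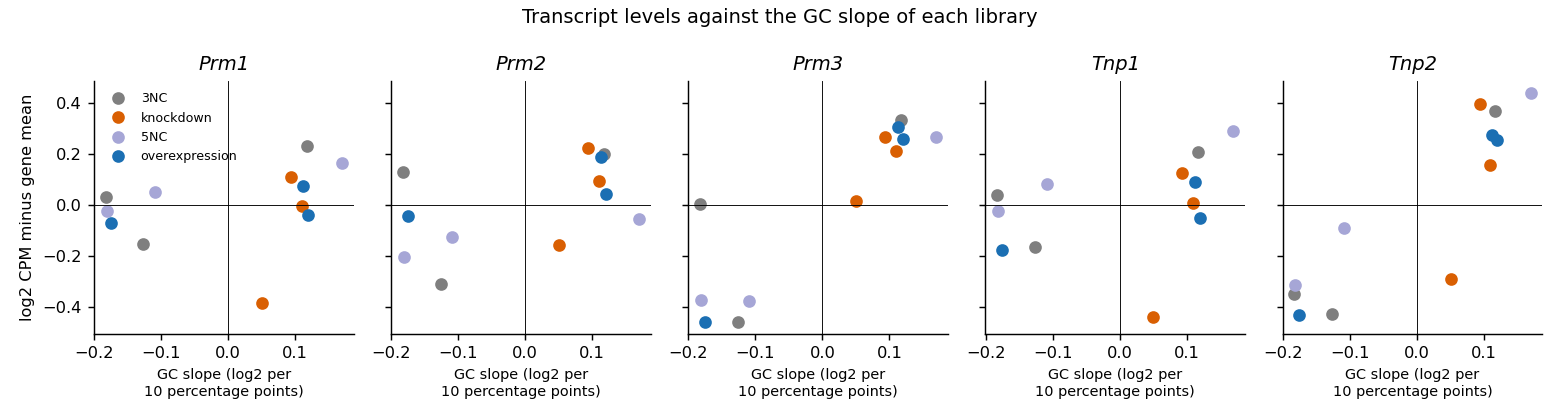
Log2 CPM minus the mean of the gene over the 12 libraries (y axis) against the GC slope of the library (x axis, log2 per 10 percentage points of transcript GC), for each of the 5 genes, with points as libraries and colours as groups. The libraries form 2 clusters on the x axis, every positive library lies above the negative ones for Prm3, and all but knockdown 1 do for Tnp2.

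Prm1 and Tnp1, which lie on different chromosomes, had the highest correlation of the 10 pairs of members before GC removal. Over the 12 libraries Pearson's r between their log2 CPM was 0.971 and Spearman's rho 0.986, with a permutation p of 1e-05 each, the smallest they can give, and 1e-04 after adjustment over the 10 pairs. Without the 2 libraries farthest from the median, r was 0.960. Within the 7 libraries of positive GC slope r was 0.980, and after removal of the GC trend over all 12 it was 0.873, below the 0.902 of Tnp1 and Tnp2. Prm1 and Prm2, which are neighbours, gave r = 0.608 and rho = 0.657 (permutation p = 0.0298 and 0.0237, adjusted 0.0425 and 0.0297), and r was 0.563 without the 2 farthest libraries. After removal of the GC trend, r of Prm1 and Prm2 was higher, at 0.761. Levels of a library share its depth and scaling factor, so the points of such pairs are not free of each other's error. Prm3 levels did not overlap between the 2 signs of GC slope, though knockdown 1 (175.4 CPM) lay beside 3NC 3 (174.1 CPM). Within the 7 libraries of positive slope r was 0.929 for Prm3 and Tnp2 and 0.945 for Prm3 and Prm1. Over all 12 libraries r was 0.859 for Prm3 and Tnp2 and 0.434 for Prm3 and Prm1 (permutation p = 0.158 for the latter). With the GC trend removed over the same 12 libraries, r was 0.761 and 0.403.

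**Figure D4:**
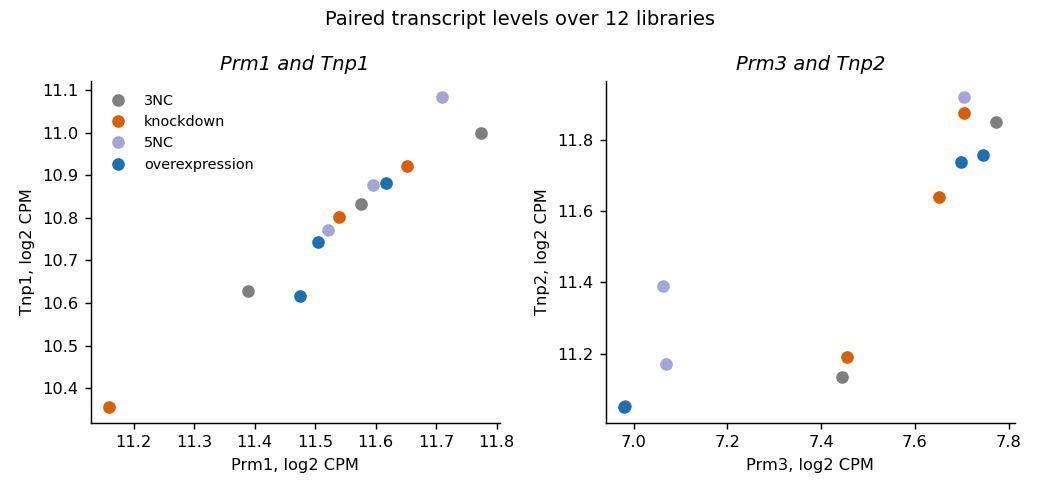
Log2 CPM of Tnp1 against Prm1 (left) and of Tnp2 against Prm3 (right), with points as libraries and colours as groups. Prm1 and Tnp1 fall near a line through all 12 libraries, with knockdown 1 lowest in both, while Prm3 and Tnp2 fall into a lower and an upper cloud.

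The ratio of Prm1 to Prm2 is a measure often used for sperm, and a ratio within a library does not depend on its scaling. The FPKM ratio still depends on the implied lengths, at 253.0 to 271.7 bases for Prm1 and 475.3 to 494.8 for Prm2. By FPKM it was 1.15, 1.28 and 1.05 in 3NC and 0.961, 1.04 and 1.03 in the knockdown group. It was 1.29, 1.28 and 1.28 in 5NC and 1.05, 1.03 and 1.12 in overexpression. The knockdown libraries were all below the 3NC libraries, the overexpression libraries were all below the 5NC libraries, and the 5NC libraries were all above the 3NC libraries. The log2 difference was -0.20 for knockdown against 3NC, -0.27 for overexpression against 5NC and 0.15 for 5NC against 3NC. The exact two-sided permutation p was 0.1 in each, and 0.1 after adjustment over the 3 comparisons, which is the smallest that 3 against 3 libraries allow. A test of this size cannot pass the threshold, so it says nothing for or against a difference. The share of other gene pairs that separate the groups in this way was not computed.

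The gaps between knockdown and 3NC and between 5NC and 3NC were narrow. Knockdown 2, the highest of its group at 1.036, lay next to 3NC 3 at 1.050, and 5NC 2 at 1.2796 lay next to 3NC 2 at 1.2764. By the ratio of reads, knockdown 2 was at 0.5690 and 3NC 3 at 0.5696. After the GC trend of each library was removed, the ratio of Prm1 to Prm2 reads was 0.636, 0.663 and 0.553 in 3NC and 0.526, 0.580 and 0.569 in the knockdown group, so the groups overlapped (log2 difference -0.14, exact permutation p = 0.3). The same correction left the overexpression libraries at 0.572 to 0.588, below the 5NC libraries at 0.668 to 0.730 (log2 difference -0.25, exact permutation p = 0.1). The 5NC libraries also stayed above those of 3NC, at 0.553 to 0.663 (log2 difference 0.17, exact permutation p = 0.1). The mean ratio by FPKM was 1.16 ± 0.11 in 3NC and 1.285 ± 0.008 in 5NC (SD, n = 3).

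Other ratios of the members overlapped between groups. Tnp1 to Prm1 was the steadiest, at 0.50 to 0.591 by FPKM over the 12 libraries, with group means of 0.536 ± 0.006 in 3NC, 0.538 ± 0.016 in knockdown, 0.561 ± 0.027 in 5NC and 0.528 ± 0.025 in overexpression (SD, n = 3). Tnp2 to Tnp1 ranged from 0.867 to 1.41 and was 1.02 ± 0.22 in 3NC, 1.30 ± 0.07 in knockdown, 1.06 ± 0.18 in 5NC and 1.22 ± 0.25 in overexpression. Both transition proteins against both protamines gave 0.513 to 0.755.

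**Figure D5:**
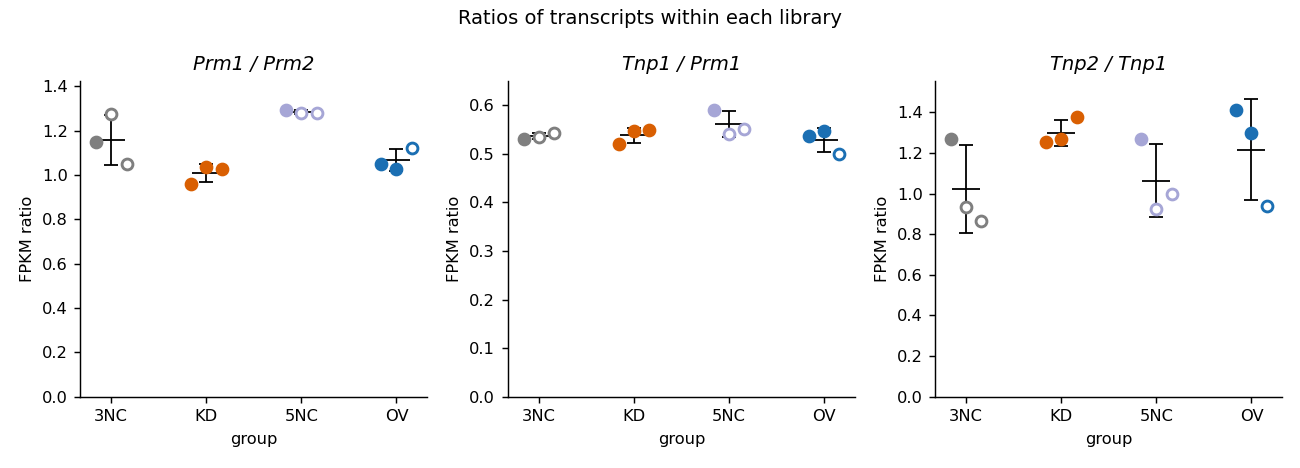
FPKM ratios within each library (y axes, from 0) of Prm1 to Prm2, Tnp1 to Prm1 and Tnp2 to Tnp1 by group (x axis, knockdown as KD and overexpression as OV). Points are libraries, filled for a positive and open for a negative GC slope, with the mean as a long dash and the SD as a bar (n = 3). For Prm1 to Prm2 the knockdown and overexpression points lie at 0.961 to 1.12 and the points of the control groups at 1.05 to 1.29.

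Genes that control protamine transcription and translation were read from a list of 22, all of which were tested. None passed in any of the comparisons, and the median log2 fold change was 0.06 in knockdown, 0.08 in overexpression and 0.04 in 5NC against 3NC, beside -0.02, -0.01 and -0.02 over all genes. At an unadjusted p under 0.05, 0 were higher or lower in knockdown, and 1 was higher and 1 lower in overexpression, against 5.64% and 11.9% of all genes in either direction. The smallest p in knockdown belonged to Rfx2, a transcription factor of spermatids, at 0.35 (SE 0.17, adjusted p = 0.764) and Ybx3, a Y-box protein that binds mRNA, at 0.25 (SE 0.13, adjusted p = 0.764). In overexpression they belonged to Prkra, an activator of a kinase that blocks translation, at -0.42 (SE 0.17, adjusted p = 0.354) and Kif17, a motor protein that moves a CREM co-activator, at 0.38 (SE 0.15, adjusted p = 0.367). Fhl5, that co-activator, was at -0.26 (SE 0.11, adjusted p = 0.421) in 5NC against 3NC, where Prkra was at 0.33 (SE 0.17, adjusted p = 0.502). For the difference of the effects the smallest p belonged to Fhl5 and to Camk4, a kinase of spermatids, at -0.26 and -0.24.

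The exchange of histones for protamines was read from 28 genes, of which 25 passed the filter and none passed the test in any comparison. The median log2 fold change was -0.03 in knockdown, 0.08 in overexpression and -0.04 in 5NC against 3NC. At an unadjusted p under 0.05, 2 were higher in knockdown (2.56% of all genes) and 5 in overexpression (7.07% of all genes), and 0 were lower in either. Dot1l, which methylates histone H3, was at 0.35 (SE 0.15, adjusted p = 0.764) in knockdown. Hspa2, a chaperone of the transition proteins, was at 899.1 ± 79.8 CPM in 5NC and 1096 ± 111 CPM in overexpression (SD, n = 3), a log2 difference of 0.29 that did not pass (SE 0.10, adjusted p = 0.307 by edgeR). Hist1h1t, the testis linker histone, had group means of only 0.456 to 1.005 CPM, with log2 differences of 0.99 (SE 0.43, adjusted p = 0.764) in knockdown and 1.14 (SE 0.43, adjusted p = 0.326) in overexpression. In 5NC against 3NC, Nutm1 was at -0.32 and Kat5, an acetyltransferase, at 0.23 (adjusted p = 0.450 and 0.463). Cdyl and Parg had the smallest p for the difference of the effects, at -0.29 and -0.26.

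Of the other genes of elongating and round spermatids none passed the edgeR test in the fit of all 12 libraries. Of 20 other elongating spermatid genes, 6 were higher in overexpression at an unadjusted p under 0.05 (7.07% of all genes) and 0 lower, with a median of 0.17, and 4 were lower in 5NC than in 3NC (6.55% of all genes), with a median of -0.19. Of 14 round spermatid genes, 7 were higher in overexpression with a median of 0.37, and 7 were lower in 5NC than in 3NC with a median of -0.27. Both comparisons share the 5NC libraries. In knockdown 0 of the 20 and 1 of the 14 were higher at that level, as were 2.56% of all genes. The 5 members had medians of 0.04, 0.02 and 0.02 in the 3 comparisons.

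Spata18, named for its part in spermatogenesis, was at 452.2 ± 32.4 CPM in 5NC and 634.1 ± 36.7 CPM in overexpression, with 580.6 ± 69.0 in 3NC and 599 ± 42.8 in knockdown (SD, n = 3). Its difference was 0.49 in overexpression (SE 0.10, adjusted p = 0.091) and -0.36 in 5NC against 3NC (SE 0.10, adjusted p = 0.270), and in overexpression it passed under 7 alternatives, among them DESeq2 (adjusted p = 0.000924). Tsga8, a haploid germ cell gene, was at 0.80 (SE 0.28, adjusted p = 0.277) in overexpression. Catsper3, a subunit of the sperm calcium channel, was at 0.49 (SE 0.13, adjusted p = 0.156) and Sun5, which joins the sperm head and tail, at 0.47 (SE 0.13, adjusted p = 0.163). Catsper3 and Sun5 passed by DESeq2 (adjusted p = 0.029 and 0.039), and Sun5 by edgeR without both libraries high in leukocyte markers (adjusted p = 0.046). In 5NC against 3NC, Smcp was at -0.32, Izumo1, the sperm protein that binds the egg, at -0.43 and Catsper3 at -0.39 (adjusted p = 0.414, 0.296 and 0.321). In knockdown, Odf3 was at 0.41, Spaca4 at 0.55, Sun5 at 0.27 and Akap4, of the fibrous sheath, at -0.17 (adjusted p = 0.764 each). For the difference of the effects Spata18 was at -0.44, Akap4 at -0.33, Izumo1 at -0.42 and Catsper3 at -0.41, and none passed.

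Markers of other cells were read beside the members. Of 11 spermatocyte genes, Spo11, which cuts DNA in meiosis, was called lower in overexpression, at 43.3 ± 3.7 CPM against 61.7 ± 4.7 CPM in 5NC (log2 fold change -0.51, SE 0.09, adjusted p = 0.045 by edgeR). The Spo11 call was lost without the filter on low counts (adjusted p = 0.061), with only the 6 libraries compared (0.074), with the GC trend removed (0.066) and with the replicate block (0.081). It was also lost without 5NC 2 (0.162), 5NC 3 (0.241), overexpression 1 (0.167), overexpression 2 (0.253) or overexpression 3 (0.083), at a log2 fold change of -0.55 to -0.44. Of 5 blood genes, Hbb-bs and Hbb-bt were called higher in overexpression and lower in 5NC than in 3NC, and Hbb-bs also for the difference of the effects. Their means in 5NC were 0.024 and 0.023 CPM, so the calls rest on near absence there, against 7.36 and 1.47 CPM in overexpression and 11.03 and 2.72 CPM in 3NC. The summed CPM of the 5 blood genes overlapped between these groups, at 48.7 to 56.5 in 5NC, 52.0 to 101.8 in overexpression and 40.3 to 81.3 in 3NC. The Hbb-bt call in overexpression was lost without any 1 of the 6 libraries compared (adjusted p = 0.060 to 0.247), with the replicate block (0.078), with totals without scaling (0.051), with the GC trend removed (0.051) and by limma at a pseudocount of 1 (0.098). In 5NC against 3NC the Hbb-bt call was lost without 3NC 1 (0.085) or any 1 of the 5NC libraries (0.129 to 0.180), with the block (0.065), with only the 6 libraries compared (0.144) and by limma at a pseudocount of 1 (0.054). Of 9 spermatogonia, 11 Sertoli, 7 Leydig, 10 leukocyte and 5 epididymis genes tested, 0 were called by edgeR in any comparison. At an unadjusted p under 0.05, 3 of the 7 Leydig genes were lower in knockdown, as were 4 of the 5 epididymis genes, against 3.08% of all genes. In overexpression 4 of the 5 epididymis genes were lower, against 4.85% of all genes. The summed CPM of the epididymis list was 3.996 to 310.8 CPM over the libraries, highest in 5NC 2, and 6 of its 9 genes were at 0 in at least 1 library. The summed CPM of the 5 members was lowest in 3NC 2 and knockdown 1, at 10463 and 10504 CPM, the 2 libraries high in leukocyte markers, and 11381 to 15084 CPM in the other 10. Without both libraries 0 of the members was called in any comparison.

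The genes whose log2 CPM followed the mean of the 5 members most closely over the 12 libraries were Agpat3 (an acyltransferase of phospholipid synthesis, r = 0.980), Prss55 (a serine protease of male germ cells, 0.961), the kinase gene Mapk3, Psmf1 and Oxct2a (0.959 each), and Fam78a, 1700020A23Rik and 1110017D15Rik (0.958 each), of 15408 genes searched. With the GC trend removed, r of these genes was 0.885 for Oxct2a to 0.969 for Prss55. The members were left out of this search, and Prm1 and Tnp1 were closer to each other, at r = 0.971, than to any gene in it. For single members the closest of the genes searched were Prss58, Tex37 and Epb41l3 for Prm1, Fam166a, Lrrc27 and Fam187b for Prm2, and Cyth2, Fam71e1 and Lrwd1 for Prm3. Tex37, H2al2a and Castor1 were closest to Tnp1, and Tsta3, Tmem189 and Trappc9 to Tnp2. These coefficients ran from 0.925 for Castor1 to 0.982 for Cyth2 and were the highest of many, so they describe likeness in these libraries only. H2al2a, a histone variant that acts with the transition proteins, was the one gene of this set from the histone exchange field.

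Of the genes within 250 kb of the cluster on chromosome 16, 5 besides the members were tested and 0 were called by edgeR in any comparison. Their means ran from 1.82 CPM for Rmi2 to 103.8 CPM for Clec16a. Socs1, which restrains cytokine signalling, lies 2399 bp below Tnp2 in coordinate and had a mean of 4.07 CPM. Rmi2, of a complex that resolves DNA crossovers, lies 38236 bp above Prm1 and had a mean of 1.82 CPM. The members had means of 177.4 CPM for Prm3 to 4926 CPM for Prm2. CPM is not divided by length, and each of these figures is the level of that gene only.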

How the data were processed

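Testis RNA of 12 libraries was enriched for mRNA with oligo(dT) and sequenced, and the authors placed the reads on mouse genes (mm10 per the submitters' processing notes). The table they deposited gives estimated counts, with fractions in 17.3% of the genes, and FPKM made by the authors (RPKM in their methods). Another 18 per-sample columns of other groups were not used. Groups and replicate numbers came from the sample titles. Counts were rounded, filtered with filterByExpr and scaled by TMM, and all 12 libraries entered 1 edgeR 4.0.16 quasi-likelihood fit (R 4.3.3) with Benjamini-Hochberg adjustment over 16388 genes. The study used DEGseq, which does not model replicate spread. The Prm1 to Prm2 ratio was tested by exact permutation. GC content came from the longest GENCODE transcript and covered 97.4% of the tested genes. FPKM was also tested with limma 3.58.1 on log2(FPKM + 0.1), a scale that understates the change of low genes, and counts with DESeq2 1.42.0.

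The members and the gene lists were chosen with earlier results of these data known, and the motifs after the promoter sequences had been read. Genes were named by a rule: the members, the 2 genes with the smallest p of each of 4 spermatid lists per contrast, every list gene with an adjusted p under 0.05, the genes most like the members, and the nearest tested gene on each side of the cluster. Libraries were treated as unpaired, since deviations of libraries of the same replicate number correlated at -0.71 to 0.44, without a steady sign. With 3 libraries per group these values cannot exclude a pairing. No libraries of a group agreed within counting noise. The scripts were tested on simulated data.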

Additional observations from a re-analysis of the deposited data

How the results depend on the processing

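None of the 5 genes was called under any alternative. Their intervals were widest for Prm3 and Tnp2. Calls over all genes were 0 in knockdown against 3NC, 51 in overexpression against 5NC, 21 in 5NC against 3NC and 4 for knockdown effect minus overexpression effect. By DESeq2 they were 16, 328, 171 and 42. With the replicate block they were 0, 21, 5 and 2, and the block changed no call of a member. The study's thresholds gave 5 in overexpression against 5NC and 3 in 5NC against 3NC. Without 3NC 2 and knockdown 1, the libraries high in leukocyte markers, these 2 comparisons gave 159 and 45, with the GC slope as a covariate 143 and 98 (chosen after seeing the data, as was removal of the GC trend) and with only the 6 libraries compared 107 and 7. Limma on log2(FPKM + 0.1) gave 82 in overexpression against 5NC, and without a filter 35 in 5NC against 3NC and 9 for knockdown effect minus overexpression effect. Totals without scaling gave 33 in 5NC against 3NC. With each library left out in turn, calls ranged from 0 to 12, 9 to 49, 3 to 35 and 2 to 10 in these 4 comparisons, with 12 without 3NC 3, 9 without 5NC 2 or 5NC 3, 35 without 3NC 2 and 10 without 3NC 3. The cause of these moves was not tested.

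Small differences of members changed sign. In knockdown against 3NC, Prm2 was -0.044 with the GC covariate, -0.083 with the GC trend removed and -0.0039 without both libraries high in leukocyte markers, and Prm3 and Tnp2 were -0.12 each with the GC covariate. In overexpression against 5NC, Tnp2 was -0.12 with the GC covariate, -0.035 with the GC trend removed, -0.032 by limma at a pseudocount of 0.1 with or without a filter and of 1, and -0.029 by totals. In 5NC against 3NC without both libraries high in leukocyte markers, Prm1 was -0.069, Tnp1 -0.0028 and Tnp2 -0.0070. For knockdown effect minus overexpression effect, Prm3 was 0.0087 by limma at a pseudocount of 0.1 with or without a filter, 0.0086 at 1 and 0.014 by totals, and Tnp1 was -0.030 with the GC covariate. With each library left out in turn, the knockdown value ranged from -0.22 to 0.0088 for Prm1, -0.10 to 0.14 for Prm2, -0.013 to 0.38 for Prm3, -0.23 to 0.035 for Tnp1 and 0.041 to 0.51 for Tnp2. The overexpression value ranged from -0.12 to -0.027 for Prm1, 0.13 to 0.25 for Prm2, 0.078 to 0.45 for Prm3, -0.24 to -0.075 for Tnp1 and -0.13 to 0.26 for Tnp2. The knockdown value of Tnp2 was 0.51 without 3NC 1 and 0.041 without knockdown 3, and the overexpression value of Prm3 was 0.45 without 5NC 1 and 0.078 without overexpression 2. In 5NC against 3NC the ranges were -0.070 to 0.13 for Prm1, -0.29 to -0.049 for Prm2, -0.37 to 0.085 for Prm3, -0.0079 to 0.19 for Tnp1 and -0.11 to 0.44 for Tnp2. For the difference of effects they were -0.15 to 0.086 for Prm1, -0.30 to -0.054 for Prm2, -0.28 to 0.17 for Prm3, -0.071 to 0.20 for Tnp1 and -0.070 to 0.49 for Tnp2. The Prm1 to Prm2 ratio kept its direction in all 3 comparisons with each library left out (-0.27 to -0.13 in knockdown, -0.31 to -0.24 in overexpression and 0.08 to 0.23 in 5NC against 3NC), with the GC trend removed and by the ratio of reads.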
